A study of Homo sapiens with 9 samples.

Results

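The genes described are the translation initiation factors eIF1 to eIF6. They were taken as the protein-coding genes whose symbol is EIF followed by a digit from 1 to 6, with the eIF4E-binding proteins kept and the kinases of eIF2 and pseudogenes left out. Of 143 symbols that begin this way, 52 were kept, among 60683 gene IDs in all. The members were placed in 11 lists by the complex or step they belong to. After a filter on low counts, 47 of the 52 were tested in clone 37 against parental, and 48 in each of the comparisons with clone 15. EIF3CL, EIF4E1B, EIF4EBP3 and EIF1AY were tested in none, and EIF2S3B was not tested in clone 37 against parental.

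Total RNA was sequenced from HEK293T cells, an embryonic kidney line of human origin with the SV40 large T antigen, in 3 groups of 3 replicates. The parental cells had no reporter. Clone 15 and clone 37 each grew from a single sorted cell after piggyBac transposition of a pair of luciferase constructs into the genome, ATG-(CAG)60-Myc-NLuc with 60 CAG units and ATG-(CAG)0-Myc-FLuc with 0. The labels call clone 37 the high and clone 15 the low expresser of both constructs. Each level is thus 1 clone, and reporter level and clone cannot be told apart. Read length was 75 bases in parental and clone 37 and 100 bases in clone 15, and these factors cannot be told apart either. The labels do not say whether replicates were separate cultures, and p-values may measure only technical spread.

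Initiation starts when eIF2, loaded with GTP, brings the initiator tRNA to the small ribosomal subunit together with eIF1, eIF1A, eIF3 and eIF5. The eIF4F complex, made of the cap-binding eIF4E, the scaffold eIF4G and the helicase eIF4A, loads this assembly onto a capped mRNA, which it scans for a start codon. eIF5B then joins the large subunit, eIF2B recharges eIF2 with GTP, and the 4E-BP proteins block eIF4E when they are not phosphorylated. The eIF2 and eIF4E steps are the best known points of control, because kinases that phosphorylate the alpha subunit of eIF2 slow eIF2B and mTOR acts on the 4E-BPs.

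Gene counts summed to 10334090 to 38093340 per library. Multimapping read pairs made up 5.14% ± 0.743 of the pairs in clone 15, below the 12.8% ± 1.05 of parental and 11.1% ± 0.667 of clone 37 (SD, n = 3 each). Replicate pairs differed in counts by a chi-square per gene of 1.77 to 1.99 within clone 37 and between parental replicates 1 and 3. This value was 11.5 and 11.6 for the pairs with parental replicate 2 and in clone 15 it was 9.97 and 8.19 for the pairs with replicate 2 and 4.53 for the other pair. Parental replicate 2 and clone 15 replicate 2 thus stood apart in their groups, and no library was a copy of another. All 8 markers listed for the HEK293 line were above 1 CPM (counts per 1000000 gene counts) in every library. Their summed level differed between the groups, at 1269 to 1560.1 CPM in parental, 4042 to 4200 in clone 15 and 803 to 875 in clone 37, and NEFM alone averaged 559, 2728 and 137. Of 15 markers of blood, liver, muscle and fibroblasts, 9 stayed under 1 CPM in every library, and CD3E, HBB and SERPINA1 were at 0 in all 9. The summed level of the 15 was 37.9 to 40.5 CPM in parental, 56.9 to 170.3 in clone 15 and 21.0 to 24.2 in clone 37, nearly all of it from 2 fibroblast collagen genes. COL1A1 averaged 34.4 CPM in parental, 72.7 in clone 15 and 19.5 in clone 37. COL1A2 was at 0 in every parental and clone 37 library, and averaged 24.8 CPM in clone 15 with a highest value of 56.8 in replicate 3. Whether this RNA came from the clone 15 cells themselves was not tested, nor was the part of any of these markers in the results for clone 15.

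Together the 52 genes made up 0.999% to 1.13% of the gene counts of each library. Levels were divided by the length of all annotated exons of a gene. This can far exceed its longest transcript (6005 against 1990 bases for EIF3E), so ranks depend on the annotation. The highest in parental cells were EIF2S3 at 192 CPM per kb, EIF5A at 175, EIF1 at 149.7, EIF4EBP1 at 149 and EIF4B at 142. The level of the eIF2B subunits ran from 6.25 to 20.0 CPM per kb, below every subunit of eIF2 itself except EIF2S1 at 17.0 and the copy EIF2S3B. The cap-binding genes were in that range or lower, with EIF4E at 4.44, EIF4E2 at 8.12 and EIF4E3 at 4.07 CPM per kb. EIF4A1 (3.07) and EIF3C (1.85) stood far below the other tested members of their lists, and both overlap or duplicate another annotated gene. Of the EIF4A1 exon bases 48.6% also lie in genes annotated on the same strand, which hold 100% of the 75-base words of its longest transcript, and 49.3% of the 75-base words of EIF3C occur in its copy EIF3CL, so many reads of either cannot be assigned to 1 gene and both levels are uncertain.

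**Figure D1:**
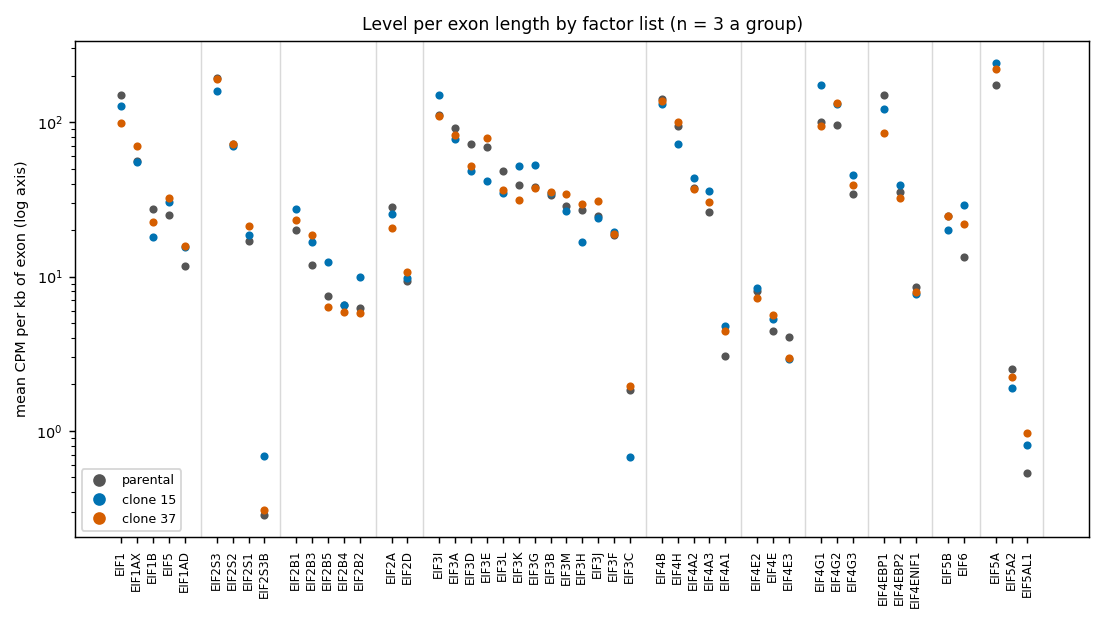
Mean level per kb of exon (log axis) of the 48 members tested in any comparison, by list; points give parental (grey), clone 15 (blue) and clone 37 (orange), each a mean of 3 libraries. EIF2S3, EIF5A, EIF1, EIF4EBP1 and EIF4B lie highest in parental, and EIF3C and EIF4A1 lie far below the rest of their lists.

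Both clones differed from parental cells in most initiation factor genes, by small amounts and in both directions. Genes were called at an adjusted p under 0.05 in edgeR's quasi-likelihood test with Benjamini-Hochberg adjustment over all genes tested. Adjusted p below means this test unless DESeq2 is named. In clone 37 against parental, 17 members were called higher and 12 lower of 47 (61.7%), where 54.0% of all genes passed the test, 26.7% higher and 27.3% lower. In clone 15 against parental, 17 were higher and 14 lower of 48 (64.6%), against 51.4% of all genes, 25.1% higher and 26.2% lower. Between the clones 11 were higher and 16 lower in clone 37 (56.2%), against 57.7% of all genes, 28.7% higher and 29.0% lower. These shares lie near or moderately above those of all genes, and the difference was not tested. The shares of all genes also stand beside the counts of each list below. With protein-coding genes alone, 17 members were higher and 13 lower in clone 37, with 28.7% and 32.9% of these genes. In clone 15 it was 19 and 14, with 30.4% and 29.0%, and between the clones 11 and 17, with 31.2% and 32.7%.

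Over the tested members the median log2 fold change was -0.024 in clone 37 and 0.023 in clone 15, against 0.024 and 0.015 for all genes. Changes in clone 37 were small in size, with a median absolute log2 fold change of 0.19 for the members and 0.32 for all genes. In clone 15 these values were 0.38 and 0.36. Without clone 37 replicate 3 the count of members higher in clone 37 was 9, where the share of all genes called higher was 19.8%, and without parental replicate 2 it was 20, where that share was 28.2%. Without clone 15 replicate 3, the library with the highest COL1A2, 17 members were higher and 15 lower in clone 15, with 23.4% and 22.9% of all genes. Both comparisons with parental use the same 3 parental libraries, so their values are given side by side with no count of shared calls.

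**Figure D2:**
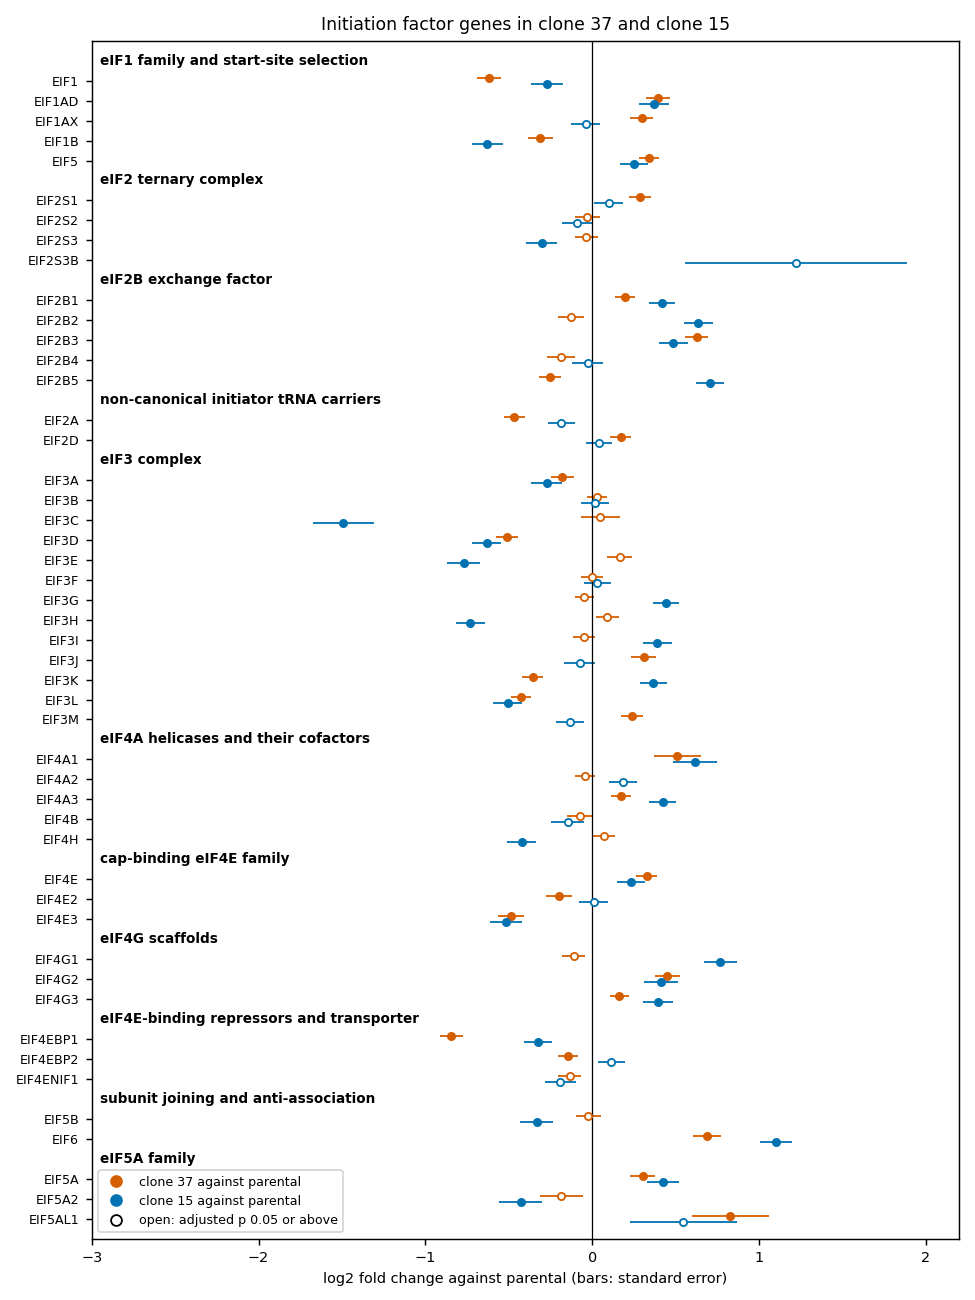
Log2 fold change against parental of each tested member in clone 37 (orange) and clone 15 (blue), by list, with bars of 1 standard error; filled points have an adjusted p under 0.05 (edgeR, n = 3 libraries a group). EIF6 lies to the right in both clones, EIF3D to the left in both, and EIF2B5 and EIF3K lie on opposite sides.

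The genes for start-site selection differed in both directions. All 5 tested members of this list were called in clone 37, 3 higher and 2 lower, and in clone 15 there were 2 higher and 2 lower. EIF1 (ENSG00000173812, chromosome 17, 41688885 to 41692668) encodes the factor that keeps the scanning ribosome open until a start codon is reached. EIF1 stood at 536, 590.4 and 501 CPM in parental cells, 460.4, 439.5 and 479.5 in clone 15 and 369.5, 348 and 363 in clone 37. The 3 groups did not overlap, and clone 37 was the lowest. EIF1 was lower in clone 37 (log2 fold change -0.62, SE 0.071, adjusted p 1.3e-06) and in clone 15 (log2 fold change -0.27, SE 0.094, adjusted p 0.0179), and lower in clone 37 than in clone 15 (log2 fold change -0.35, SE 0.054, adjusted p 2.83e-06). The clone 15 call was lost without clone 15 replicate 1 (-0.25, adjusted p 0.0539) or replicate 2 (-0.21, adjusted p 0.0681). Against the 100 tested genes nearest on its chromosome EIF1 gave -0.60, adjusted p 1.26e-05 in clone 15 and -0.20, adjusted p 0.00274 between the clones.

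Its paralogue EIF1B (ENSG00000114784, chromosome 3, 40309684 to 40312424) had the opposite order of the clones. EIF1B stood at 52.2, 56.2 and 49.3 CPM in parental cells, 37.5, 34.6 and 31.9 in clone 15 and 43.3, 42.8 and 43.4 in clone 37, with no overlap between groups. EIF1B was lower in clone 37 (log2 fold change -0.31, SE 0.073, adjusted p 0.00163) and further below parental in clone 15 (log2 fold change -0.63, SE 0.095, adjusted p 4.7e-06), and the clones differed (log2 fold change 0.31, SE 0.076, adjusted p 0.000868).

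EIF5, which makes eIF2 hydrolyse its GTP at the start codon, was higher in clone 37 (log2 fold change 0.34, SE 0.059, adjusted p 9.76e-05) and clone 15 (log2 fold change 0.25, SE 0.082, adjusted p 0.0132). Against its neighbours it gave 0.74, adjusted p 2.35e-08 in clone 37, and the clone 15 call was lost (0.11, adjusted p 0.272). That call was also lost with unstranded counts and without parental replicate 1 or 3, and removing GC and length trends gave 0.45, adjusted p 3.03e-05. EIF1AX, the X-linked gene of the scanning factor eIF1A, was higher in clone 37 (log2 fold change 0.30, SE 0.068, adjusted p 0.00133), which was not called against its neighbours (0.15, adjusted p 0.0833) or without clone 37 replicate 3 (0.23, adjusted p 0.0501). In clone 15 EIF1AX gave -0.039 (adjusted p 0.73), and 0.31, adjusted p 0.00239 with GC and length trends removed. EIF1AD, which carries an eIF1A-like domain, was higher in both, by 0.39 in clone 37 and 0.37 in clone 15 on the log2 scale, but against its neighbours it gave 0.22, adjusted p 0.021 and -0.0061, adjusted p 0.964. EIF1AY lies on the Y chromosome and is not described further.

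The 3 subunits of eIF2, the initiator tRNA carrier, differed from one another in their calls. EIF2S1 (ENSG00000134001, chromosome 14, 67359997 to 67386516), the alpha subunit that stress kinases phosphorylate, stood at 92.9, 105 and 91.3 CPM in parental cells, 113, 97.1 and 106 in clone 15 and 125, 114 and 120.2 in clone 37. Every clone 37 library was above every other library. EIF2S1 was higher in clone 37 than in parental (log2 fold change 0.29, SE 0.067, adjusted p 0.00163) and than in clone 15 (log2 fold change 0.19, SE 0.064, adjusted p 0.0144), but the second call was lost without clone 15 replicate 2 (0.10, adjusted p 0.0807), clone 37 replicate 1 (0.16, adjusted p 0.0806) or clone 37 replicate 3 (0.17, adjusted p 0.069), and with trends in GC content and length removed the value was -0.0019. Against its chromosome neighbours EIF2S1 gave larger values, 0.70, adjusted p 2.4e-07 in clone 37 and 0.67, adjusted p 1.88e-09 between the clones. In clone 15 against parental the log2 fold change was 0.10 (adjusted p 0.362), and it was called higher with those trends removed (0.33, adjusted p 0.000941) or without parental replicate 2 (0.19, adjusted p 0.0448).

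EIF2S3 (ENSG00000130741, chromosome X, 24054716 to 24077971), the gamma subunit that holds GTP and the initiator tRNA, showed a decrease in clone 15 instead. EIF2S3 stood at 656, 716 and 633 CPM in parental cells, 550.1, 548 and 564 in clone 15 and 663, 668 and 662 in clone 37. Clone 15 lay below both other groups, which overlapped each other. EIF2S3 was lower in clone 15 than in parental (log2 fold change -0.30, SE 0.092, adjusted p 0.00801), and clone 37 was above clone 15 (log2 fold change 0.27, SE 0.049, adjusted p 4.13e-05), while clone 37 against parental gave -0.036 (adjusted p 0.688). Against its chromosome neighbours neither call held, with -0.12, adjusted p 0.331 in clone 15 and -0.0090, adjusted p 0.897 between the clones, which with GC and length trends removed gave 0.16, adjusted p 0.000571. EIF2S2, the beta subunit, was called in no comparison, with log2 fold changes of -0.029 (adjusted p 0.762) in clone 37 and -0.089 (adjusted p 0.425) in clone 15. Against its neighbours it was called lower in both, at -0.34, adjusted p 0.00147 and -0.54, adjusted p 3.66e-05. Of the 75-base words of EIF2S3 15.1% occur in other genes, and of its 100-base words 10.0%. For EIF2S2 these shares were 18.5% and 14.8%. Read length differs between the groups, so both levels are in part uncertain. EIF2S3B, a copy of EIF2S3, gave parental counts of 9, 11 and 6, clone 37 counts of 11, 6 and 8 and clone 15 counts of 29, 84 and 16. Clone 15 replicate 2 stood apart with 3.41 CPM, and no difference was called.

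The exchange factor eIF2B is a decamer built of pairs of 5 different subunits. Where 25.1% of all genes were higher in clone 15, 4 of its 5 genes were, with none lower. In clone 37, 2 of these genes were higher and 1 was lower, and between the clones 3 were lower in clone 37 and none higher. EIF2B5 (ENSG00000145191, chromosome 3, 184135038 to 184146112) encodes the catalytic epsilon subunit. EIF2B5 stood at 52.5, 52.2 and 56.0 CPM in parental cells, 84.3, 87.4 and 96.1 in clone 15 and 45.5, 46.0 and 45.8 in clone 37. The groups did not overlap, with clone 15 highest and clone 37 lowest. EIF2B5 was higher in clone 15 (log2 fold change 0.70, SE 0.083, adjusted p 1.27e-07), lower in clone 37 (log2 fold change -0.25, SE 0.066, adjusted p 0.00348) and lower in clone 37 than in clone 15 (log2 fold change -0.96, SE 0.067, adjusted p 1.15e-12). Taken against the 100 tested genes nearest to it on its chromosome, the decrease in clone 37 was no longer called (-0.018, adjusted p 0.852), and the difference between the clones was -0.54, adjusted p 1.64e-07.

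EIF2B2 (ENSG00000119718, chromosome 14, 75002911 to 75012366), the regulatory beta subunit, stood at 32.8, 35.2 and 34.2 CPM in parental cells, 54.7, 53.6 and 54.1 in clone 15 and 32.5, 30.7 and 32.1 in clone 37. Clone 15 was above both other groups. EIF2B2 was higher in clone 15 (log2 fold change 0.64, SE 0.088, adjusted p 1.47e-06) and lower in clone 37 than in clone 15 (log2 fold change -0.76, SE 0.071, adjusted p 3.87e-10), and in clone 37 against parental the log2 fold change was -0.13 (adjusted p 0.176), or 0.30, adjusted p 0.00412 against its neighbours. Against them the difference between the clones was -0.24, adjusted p 0.00675. EIF2B3 (ENSG00000070785, chromosome 1, 44850522 to 44986722), the gamma subunit that pairs with epsilon, had the largest increase of the 5 in clone 37. EIF2B3 stood at 43.0, 38.3 and 39.3 CPM in parental cells, 55.4, 56.3 and 60.6 in clone 15 and 63.7, 62.2 and 63.0 in clone 37, with both clones above parental and clone 37 above clone 15. EIF2B3 was higher in clone 37 (log2 fold change 0.62, SE 0.068, adjusted p 6.61e-07) and clone 15 (log2 fold change 0.49, SE 0.087, adjusted p 4.84e-05), and the clones gave 0.14 (adjusted p 0.0661). The clone 15 value against its neighbours was 0.24, adjusted p 0.0288. The difference between the clones was called in 4 alternatives, with unstranded counts (0.16, adjusted p 0.0379), GC and length trends removed (0.17, adjusted p 0.00734), neighbours as reference (0.23, adjusted p 0.00481) or clone 15 replicate 3 left out (0.17, adjusted p 0.0443).

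EIF2B1, the alpha subunit, was higher in clone 37 by 0.19 and in clone 15 by 0.42 on the log2 scale. The clone 37 call was lost in 7 of 17 alternatives, among them the DESeq2 test (0.18, adjusted p 0.0518), chromosome neighbours (0.11, adjusted p 0.15) and leaving out parental replicate 1 or clone 37 replicate 1 or 3. EIF2B4, the delta subunit, was called in no comparison, with log2 fold changes of -0.19 (adjusted p 0.0692) in clone 37 and -0.027 (adjusted p 0.83) in clone 15. It was called lower in clone 37 in 5 alternatives, with the largest decrease without parental replicate 2 (-0.27, adjusted p 0.00141), and called higher in clone 15 against its neighbours (0.32, adjusted p 0.00702). The subunits of 1 complex thus had log2 fold changes from -0.25 to 0.62 in clone 37 and from -0.027 to 0.70 in clone 15.

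EIF2A (ENSG00000144895, chromosome 3, 150546678 to 150584242) and EIF2D can deliver initiator tRNA without the eIF2 complex, and EIF2A has been studied for initiation at codons other than AUG. EIF2A stood at 114, 122 and 113 CPM in parental cells, 108, 101 and 105 in clone 15 and 90.3, 80.0 and 87.0 in clone 37. The groups did not overlap, and clone 37 was the lowest. EIF2A was lower in clone 37 than in parental (log2 fold change -0.47, SE 0.065, adjusted p 9.54e-06) and than in clone 15 (log2 fold change -0.28, SE 0.062, adjusted p 0.000294), and clone 15 gave -0.19 (adjusted p 0.0547), which was called with unstranded counts (-0.29, adjusted p 0.0135), with all 9 libraries in the fit (-0.18, adjusted p 0.0313) and without parental replicate 3 (-0.24, adjusted p 0.0443). Its 100 nearest tested genes had a median log2 fold change of -0.44 in clone 37, and against them EIF2A gave -0.030, adjusted p 0.737, and 0.11, adjusted p 0.158 between the clones, where removing GC and length trends gave -0.47, adjusted p 6.75e-10. EIF2D was higher in clone 37 (log2 fold change 0.17, SE 0.062, adjusted p 0.0281), with 0.041 (adjusted p 0.685) in clone 15. The clone 37 call was lost in 9 of 17 alternatives, among them the DESeq2 test (0.16, adjusted p 0.101) and leaving out parental replicate 1 or 3 or clone 37 replicate 1 or 3, and against its neighbours it gave 0.33, adjusted p 0.000339. With GC and length trends removed the clone 15 value was 0.16, adjusted p 0.0354.

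In the eIF3 complex, the largest initiation factor, 3 of 13 tested subunits were higher and 6 lower in clone 15. In clone 37 against parental, 2 subunits were higher and 4 lower. Clone 37 against clone 15 gave 5 higher and 3 lower. EIF3D (ENSG00000100353, chromosome 22, 36510850 to 36529436) encodes a subunit that can bind the cap of some mRNAs itself. EIF3D stood at 294, 318 and 275 CPM in parental cells, 198, 185 and 203 in clone 15 and 219.6, 209 and 207 in clone 37. Every library of both clones lay below every parental library. EIF3D was lower in clone 37 (log2 fold change -0.51, SE 0.065, adjusted p 4.27e-06) and clone 15 (log2 fold change -0.63, SE 0.087, adjusted p 1.28e-06), and between the clones the value was 0.12 (adjusted p 0.0631). Against its neighbours the clone 37 value was -0.27, adjusted p 0.00296. Clone 37 was called above clone 15 in 4 alternatives, with unstranded counts (0.15, adjusted p 0.0287), a replicate block (0.12, adjusted p 0.0465), GC and length trends removed (0.18, adjusted p 0.000964) or neighbours as reference (0.31, adjusted p 4.28e-05). EIF3L (ENSG00000100129, chromosome 22, 37848868 to 37889407), a further subunit 1338 kb away on the same chromosome (distances here are between lowest coordinates), stood at 203, 219 and 196 CPM in parental cells, 145, 136 and 164 in clone 15 and 158, 155 and 154 in clone 37. It too was lower in clone 37 (log2 fold change -0.43, SE 0.060, adjusted p 1.15e-05) and clone 15 (log2 fold change -0.51, SE 0.088, adjusted p 3.24e-05), although 41.1% of its exon bases overlap a further gene on the same strand, which leaves its level uncertain. Between the clones EIF3L gave 0.076 (adjusted p 0.309), or 0.29, adjusted p 0.000457 against its neighbours, where clone 37 against parental gave -0.19, adjusted p 0.0172.

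EIF3E (ENSG00000104408, chromosome 8, 108201216 to 108435333) and EIF3H (ENSG00000147677, chromosome 8, 116642130 to 116766925) sit on the long arm of chromosome 8, 8441 kb apart, and encode subunits of the ring of PCI and MPN proteins at the core of eIF3. EIF3E stood at 408, 457 and 378 CPM in parental cells, 268, 224 and 252 in clone 15 and 472, 457 and 488 in clone 37. EIF3H stood at 169, 192 and 161 CPM in parental cells, 107, 105 and 111 in clone 15 and 185, 192 and 189 in clone 37. In both genes clone 15 lay below the other groups, and parental and clone 37 overlapped. EIF3E was lower in clone 15 than in parental (log2 fold change -0.77, SE 0.10, adjusted p 4.26e-07) and than in clone 37, which was higher by 0.93 on the log2 scale (SE 0.062, adjusted p 2.03e-12). EIF3H gave log2 fold change -0.73, SE 0.087, adjusted p 1.36e-07 in clone 15, and clone 37 was above clone 15 by 0.82 on the log2 scale (SE 0.055, adjusted p 3.85e-13).

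The genes around EIF3E and EIF3H were low in clone 15 as well. Over the 100 nearest tested genes the median log2 fold change was -0.46 for EIF3E and -0.53 for EIF3H. Against these neighbours EIF3E was still lower (-0.32, adjusted p 0.0105), and EIF3H was not called (-0.20, adjusted p 0.0609). Between the clones the values against neighbours were 0.29, adjusted p 0.000291 for EIF3E and 0.19, adjusted p 0.00379 for EIF3H. In clone 37 against parental neither was called, but without parental replicate 2 both were higher, EIF3E by 0.24, adjusted p 8.38e-07 and EIF3H by 0.17, adjusted p 0.00105.

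EIF3K (ENSG00000178982, chromosome 19, 38619082 to 38636955), a subunit of the same ring, went in opposite directions in the clones. EIF3K stood at 105, 115 and 111 CPM in parental cells, 143, 141 and 152 in clone 15 and 84.2, 87.5 and 91.1 in clone 37. The groups did not overlap, with clone 15 highest and clone 37 lowest. EIF3K was higher in clone 15 (log2 fold change 0.37, SE 0.080, adjusted p 0.000484), lower in clone 37 (log2 fold change -0.36, SE 0.061, adjusted p 8.96e-05) and lower in clone 37 than in clone 15 (log2 fold change -0.72, SE 0.059, adjusted p 2.46e-11). With trends in GC content and length removed the increase in clone 15 was no longer called (0.14, adjusted p 0.128), and against its neighbours the clone 37 value was -0.18, adjusted p 0.0267.

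EIF3C (ENSG00000184110, chromosome 16, 28688558 to 28735730) had the largest fitted decrease of all members in clone 15, but from few uniquely placed reads. EIF3C stood at 12.1, 12.3 and 14.2 CPM in parental cells, 3.36, 6.38 and 4.50 in clone 15 and 12.6, 15.3 and 13.0 in clone 37, with clone 15 below both other groups. It gave log2 fold change -1.49, SE 0.18, adjusted p 4.66e-07 in clone 15 and log2 fold change 1.55, SE 0.18, adjusted p 1.89e-07 in clone 37 against clone 15. Since 49.3% of its 75-base words and 48.3% of its 100-base words lie in EIF3CL, and read length differs between the groups, these values are uncertain, and against its neighbours the second was 1.02, adjusted p 5.74e-05. EIF3CL itself reached at most 0.968 CPM in any library.

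The subunits EIF3B, EIF3G and EIF3I form a separate module of eIF3. EIF3G and EIF3I were higher in clone 15, by 0.44 (adjusted p 5.28e-05) and 0.39 (adjusted p 0.0005), and both were lower in clone 37 than in clone 15, at -0.49 (adjusted p 1.55e-08) and -0.44 (adjusted p 4.78e-08). With GC and length trends removed the clone 15 values were 0.21, adjusted p 0.0297 and 0.21, adjusted p 0.0447, and against its neighbours EIF3G gave 0.27, adjusted p 0.00714. EIF3B was called in no comparison, with 0.016 (adjusted p 0.885) in clone 15, or 0.41, adjusted p 0.000261 against its neighbours. In clone 37 it gave 0.027 (adjusted p 0.73), and 0.34 less the median of its neighbours. Of the remaining subunits, EIF3A, the scaffold of the ring, was lower in clone 37 (log2 fold change -0.18, adjusted p 0.0309) and clone 15 (log2 fold change -0.27, adjusted p 0.0157). The clone 37 call of EIF3A was lost in 8 of 17 alternatives, among them leaving out any clone 37 library, and the clone 15 call was lost with GC and length trends removed (-0.10, adjusted p 0.24) or without clone 15 replicate 2 (-0.20, adjusted p 0.0635). EIF3J, which is loosely bound, and EIF3M were higher in clone 37, by 0.31 (adjusted p 0.00219) and 0.24 (adjusted p 0.00404), with -0.076 (adjusted p 0.513) and -0.13 (adjusted p 0.194) in clone 15. Neither call held against neighbours (0.14, adjusted p 0.136 for EIF3J and 0.13, adjusted p 0.104 for EIF3M) or without clone 37 replicate 3, and that of EIF3M was also lost with unstranded counts and without parental replicate 3. Against neighbours EIF3J was called lower in clone 15 (-0.30, adjusted p 0.0101). EIF3F was called in no comparison.

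All 3 eIF4G scaffold genes were called higher in clone 15 and 2 of 3 in clone 37. Of all genes 25.1% and 26.7% were higher. Against chromosome neighbours only the EIF4G1 call held in clone 15. EIF4G1 (ENSG00000114867, chromosome 3, 184314495 to 184335358), the main scaffold that joins eIF4E, eIF4A and eIF3, stood at 762, 859 and 849 CPM in parental cells, 1383, 1462 and 1449.6 in clone 15 and 794, 757 and 777 in clone 37. Every clone 15 library exceeded every other library, and parental and clone 37 overlapped. EIF4G1 was higher in clone 15 (log2 fold change 0.77, SE 0.10, adjusted p 4.66e-07) and lower in clone 37 than in clone 15 (log2 fold change -0.88, SE 0.050, adjusted p 1.43e-14), with -0.11 (adjusted p 0.194) in clone 37 against parental. EIF2B5 lies 179 kb from EIF4G1 on chromosome 3, and EIF4A2 lies 2469 kb from it. The 100 tested genes nearest EIF4G1 had a median log2 fold change of 0.18 in clone 15, and against them EIF4G1 was still higher (0.58, adjusted p 3.5e-05), with -0.44, adjusted p 2.45e-08 between the clones.

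The promoters of these neighbouring genes and of the eIF3 pair EIF3K and EIF3D are shown to let the start regions be compared. Each runs from 150 bases before to 10 bases after a start of the gene in RefSeq on GRCh38.p14, on the gene's strand. These starts differ from the gene coordinates given here, and the stretches of EIF2B5 and EIF3D lie inside those coordinates. EIF4G1 has 3 starts in the table and the first is shown. Capitals mark CACGTG, the core of the E-box bound by MYC-family factors, and an unbroken run of C and T at the start, the form of the 5′-terminal oligopyrimidine motif that links mRNAs to mTOR.
EIF4G1, chr3:184314456-184314615, plus strand: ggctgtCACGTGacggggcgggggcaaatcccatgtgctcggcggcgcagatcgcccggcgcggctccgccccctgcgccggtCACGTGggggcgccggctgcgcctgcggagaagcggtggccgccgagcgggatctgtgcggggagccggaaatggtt
EIF2B5, chr3:184135208-184135367, plus strand: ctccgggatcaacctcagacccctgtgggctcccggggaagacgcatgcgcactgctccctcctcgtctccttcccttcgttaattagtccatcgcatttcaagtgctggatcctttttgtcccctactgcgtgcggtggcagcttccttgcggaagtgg
EIF3K, chr19:38619038-38619197, plus strand: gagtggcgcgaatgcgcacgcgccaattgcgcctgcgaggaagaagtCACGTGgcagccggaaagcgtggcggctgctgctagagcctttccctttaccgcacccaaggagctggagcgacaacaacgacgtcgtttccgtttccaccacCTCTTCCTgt
EIF3D, chr22:36529157-36529316, minus strand: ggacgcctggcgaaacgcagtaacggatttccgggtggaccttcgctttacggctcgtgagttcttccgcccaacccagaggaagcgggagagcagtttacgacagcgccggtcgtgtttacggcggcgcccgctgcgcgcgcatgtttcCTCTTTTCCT

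EIF4G1 holds CACGTG 144 and 67 bases before its start and EIF3K 103 bases before, and EIF2B5 and EIF3D hold none in this stretch. EIF3K begins with a pyrimidine run of 8 bases and EIF3D with one of 10. Of the 52 members, 44 matched the promoter table, which covers 250 bases before to 50 after each start. CACGTG, the same on both strands, was found in 11 of the 44 (25%), against 8.77% of 27305 genes. A start of C followed by at least 4 C or T, on the gene's strand, was found in 10 (22.7%), against 5.14% of genes. TGATGNAA, the form of the composite site bound by ATF4, was found on either strand in 1 (2.27%), the EIF4E3 promoter, against 4.46%. These matches describe letters in a window and not sites in use. The 10 genes with the pyrimidine start include EIF3D, lower in both clones, EIF3K, which went opposite ways, and EIF4B, called in no comparison.

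EIF4G2 (ENSG00000110321, chromosome 11, 10797050 to 10809110), also known as DAP5, resembles eIF4G but lacks the part that binds eIF4E. EIF4G2 stood at 795, 877 and 825 CPM in parental cells, 1171, 1005 and 1215 in clone 15 and 1162, 1102 and 1206 in clone 37. All libraries of both clones were above all parental libraries, and the clones overlapped. EIF4G2 was higher in clone 37 (log2 fold change 0.45, SE 0.074, adjusted p 6.51e-05) and clone 15 (log2 fold change 0.41, SE 0.10, adjusted p 0.00154), although against its chromosome neighbours the clone 15 value was not called (0.22, adjusted p 0.0832) and the clone 37 value was 0.29, adjusted p 0.00414. With GC and length trends removed the clone 15 value was 0.65, adjusted p 1.33e-05. Between the clones it gave 0.036 (adjusted p 0.663), and with GC and length trends removed -0.13, adjusted p 0.0208. EIF4G3 was higher in both, by 0.16 (adjusted p 0.0258) in clone 37 and 0.39 (adjusted p 0.000713) in clone 15. Against its neighbours EIF4G3 gave -0.12, adjusted p 0.0973 and 0.065, adjusted p 0.59, and its clone 37 call was lost or turned in 12 of 17 alternatives, among them leaving out parental replicate 1 or 3 or any clone 37 library.

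**Figure D3:**
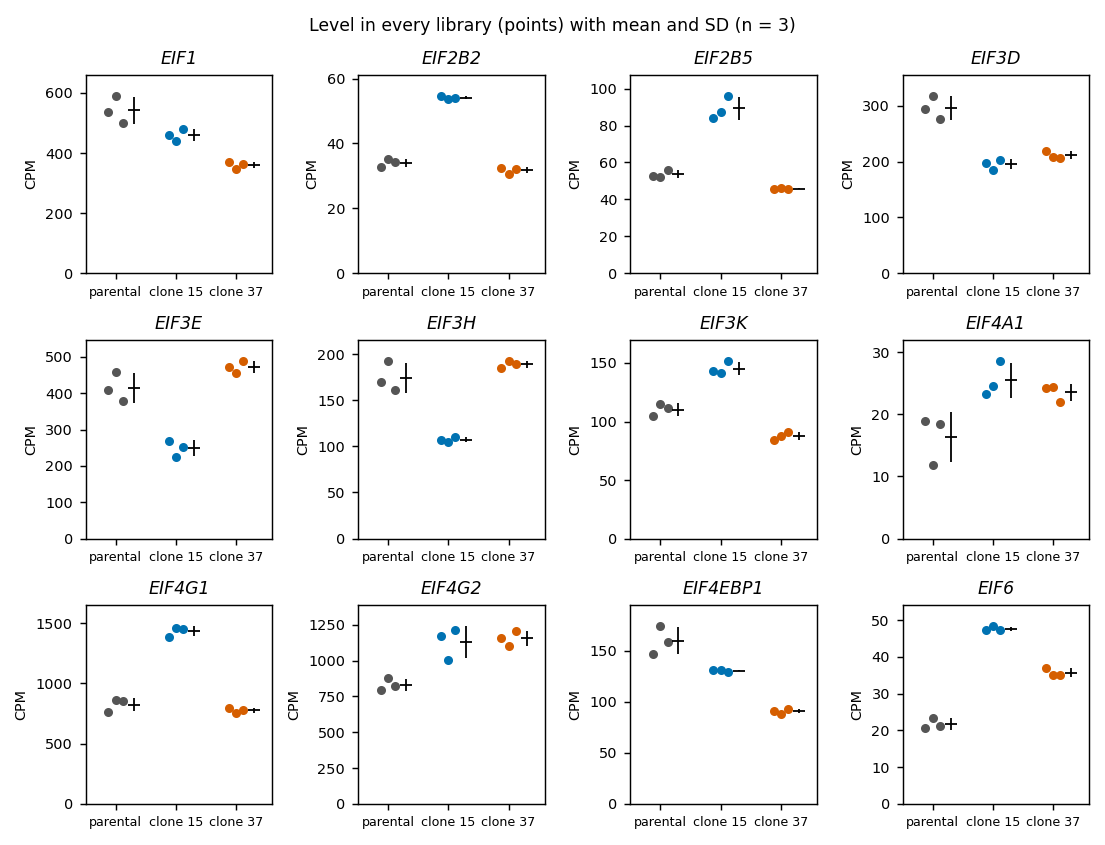
CPM of 12 members in each library (points) of parental (grey), clone 15 (blue) and clone 37 (orange), with mean and SD (black, n = 3) and axes from 0. EIF2B2, EIF2B5 and EIF4G1 are highest in clone 15, EIF3E and EIF3H are lowest there, and EIF4EBP1 is lowest in clone 37.

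Both tested 4E-BP genes, which encode repressors of eIF4E, were lower in clone 37. EIF4EBP1 (ENSG00000187840, chromosome 8, 38030341 to 38060365), the 4E-BP best known as a target of mTOR, stood at 147, 174 and 159 CPM in parental cells, 131, 131 and 129.8 in clone 15 and 91.4, 88.5 and 92.8 in clone 37. The groups did not overlap, and the order was parental, clone 15, clone 37. EIF4EBP1 had the largest decrease of any member in clone 37 (log2 fold change -0.84, SE 0.068, adjusted p 1.53e-08), was lower in clone 15 (log2 fold change -0.33, SE 0.084, adjusted p 0.00205), and was lower in clone 37 than in clone 15 (log2 fold change -0.52, SE 0.056, adjusted p 6.82e-09). Its neighbours on chromosome 8 had medians of 0.039 in clone 37 and -0.050 in clone 15. EIF4EBP2 was lower in clone 37 (log2 fold change -0.15, adjusted p 0.0415), with 0.11 (adjusted p 0.24) in clone 15. That call was lost in 9 of 17 alternatives, among them leaving out any clone 37 library, and in clone 15 EIF4EBP2 was called higher with GC and length trends removed (0.27, adjusted p 0.00169), on protein-coding genes alone or without parental replicate 2. EIF4ENIF1, which carries eIF4E into the nucleus, was called in no comparison. EIF4EBP3 had 0 to 12 counts per library and 73.4% of its exon bases overlap ANKHD1-EIF4EBP3, so its level is not given further.

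The cap-binding genes themselves split. EIF4E, the cap-binding protein that 4E-BPs block, stood at 59.8, 63.4 and 64.1 CPM in parental cells, 80.5, 69.3 and 74.7 in clone 15 and 81.7, 79.8 and 77.5 in clone 37. Both clones were above parental. EIF4E was higher in clone 37 (log2 fold change 0.33, SE 0.062, adjusted p 0.000241) and clone 15 (log2 fold change 0.23, SE 0.086, adjusted p 0.0257). The clone 15 call was lost in 6 of 17 alternatives, among them leaving out parental replicate 1 or 3 or clone 15 replicate 1, and removing GC and length trends gave 0.50, adjusted p 1.99e-05. EIF4E3 (ENSG00000163412, chromosome 3, 71675416 to 71754773), a divergent family member, moved the other way and stood at 43.3, 47.0 and 41.3 CPM in parental cells, 31.3, 33.3 and 29.4 in clone 15 and 31.1, 32.0 and 32.3 in clone 37. EIF4E3 was lower in clone 37 (log2 fold change -0.49, SE 0.078, adjusted p 4.3e-05) and in clone 15 (log2 fold change -0.52, SE 0.095, adjusted p 6.18e-05), with every clone library under every parental one. The clone 15 call was lost with GC and length trends removed (-0.18, adjusted p 0.097). Between the clones EIF4E3 gave 0.024 (adjusted p 0.808), and with these trends removed -0.20, adjusted p 0.019.

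EIF4E2 (ENSG00000135930, chromosome 2, 232550052 to 232583644), also called 4EHP, binds the cap without eIF4G and represses some mRNAs. EIF4E2 stood at 53.9, 63.4 and 57.5 CPM in parental cells, 58.3, 61.2 and 60.7 in clone 15 and 54.4, 48.0 and 52.8 in clone 37. Parental and clone 37 overlapped. It was called lower in clone 37 than in parental (log2 fold change -0.20, SE 0.079, adjusted p 0.0405), but 8 of the alternatives did not call it, among them the DESeq2 test (-0.21, adjusted p 0.0795) and leaving out parental replicate 2 (-0.13, adjusted p 0.0681) or any clone 37 library, and against its neighbours the value had the other sign (0.10, adjusted p 0.301), while unstranded counts gave -0.30, adjusted p 0.0168. In clone 15 EIF4E2 gave 0.0082 (adjusted p 0.948), and against its neighbours it was called higher (0.41, adjusted p 0.000569). EIF4E2 was lower in clone 37 than in clone 15 (log2 fold change -0.21, SE 0.067, adjusted p 0.00976), which was not called without clone 37 replicate 2 (-0.14, adjusted p 0.121). EIF4E1B, the oocyte form, had 0 to 7 counts per library.

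Among the eIF4A helicases and their cofactors, 2 of 5 genes were higher in clone 37 with none lower, and 2 were higher and 1 lower in clone 15. EIF4H (ENSG00000106682, chromosome 7, 74174245 to 74197101), which stimulates the helicase, stood at 286, 326 and 291 CPM in parental cells, 215, 240.0 and 234 in clone 15 and 326, 318 and 322 in clone 37. Every clone 15 library was below every other library, and parental and clone 37 overlapped. EIF4H was lower in clone 15 (log2 fold change -0.42, SE 0.087, adjusted p 0.000244) and higher in clone 37 than in clone 15 (log2 fold change 0.49, SE 0.053, adjusted p 5.58e-09). Its 100 neighbours had a median of -0.28 in clone 15, and against them the value was -0.14, adjusted p 0.207, with 0.21, adjusted p 0.00158 between the clones. In clone 37 against parental it was 0.071 (adjusted p 0.377), and without parental replicate 2 it was called higher (0.13, adjusted p 0.0062).

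EIF4A1 (ENSG00000161960, chromosome 17, 7572706 to 7579005), the main helicase of eIF4F, stood at 18.9, 11.8 and 18.4 CPM in parental cells, 23.2, 24.6 and 28.6 in clone 15 and 24.2, 24.4 and 22.0 in clone 37 from the reads that could be assigned to it alone. Both clones lay above parental, whose replicate 2 was the lowest library. EIF4A1 was higher in clone 37 (log2 fold change 0.51, SE 0.14, adjusted p 0.00663) and clone 15 (log2 fold change 0.62, SE 0.13, adjusted p 0.000536). Neither call held against its chromosome neighbours, with 0.24, adjusted p 0.175 in clone 37 and 0.27, adjusted p 0.105 in clone 15. Without parental replicate 2 the clone 37 value was 0.31, adjusted p 0.00365. All EIF4A1 values are uncertain, since 100% of the 75-base words of its longest transcript also occur in other genes. EIF4A3, the helicase of the exon junction complex, was higher in both clones, by 0.17 (adjusted p 0.0193) and 0.42 (adjusted p 0.000102). Against its neighbours EIF4A3 gave -0.021, adjusted p 0.798 in clone 37 and 0.041, adjusted p 0.714 in clone 15. The clone 37 call was lost or turned in 9 of 17 alternatives, among them leaving out parental replicate 1 or 3 or clone 37 replicate 1 or 3. EIF4A2, the near twin of EIF4A1, gave -0.043 (adjusted p 0.572) in clone 37 and 0.18 (adjusted p 0.0647) in clone 15 and was lower in clone 37 than in clone 15 (log2 fold change -0.23, adjusted p 0.000672), but higher when both were taken against its neighbours (0.23, adjusted p 0.000633). In clone 15 it was called higher in 8 alternatives, with 0.46, adjusted p 6.73e-05 when GC and length trends were removed, and in clone 37 it was called higher against its neighbours (0.16, adjusted p 0.0425). EIF4B was called in no comparison, with -0.15 (adjusted p 0.214) in clone 15 and 0.073 (adjusted p 0.221) between the clones. Less the median of its neighbours these values were -0.39 and 0.35. Of its 75-base words 21.0% occur in other genes, so a part of its reads is uncertain.

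EIF6 (ENSG00000242372, chromosome 20, 35278911 to 35284985), which keeps the large ribosomal subunit from joining too early, had the largest called increase of any member in clone 15. EIF6 stood at 20.6, 23.4 and 21.0 CPM in parental cells, 47.4, 48.3 and 47.4 in clone 15 and 37.1, 34.9 and 35.1 in clone 37. The 3 groups did not overlap, and the order was parental, clone 37, clone 15. EIF6 was higher in clone 15 (log2 fold change 1.10, SE 0.10, adjusted p 9.21e-10) and clone 37 (log2 fold change 0.69, SE 0.085, adjusted p 2.62e-06), and lower in clone 37 than in clone 15 (log2 fold change -0.41, SE 0.070, adjusted p 1.27e-05). Of its exon bases 17.4% overlap another annotated gene. Its neighbours on chromosome 20 had medians of 0.45 in clone 15 and 0.31 in clone 37, and against them EIF6 was still higher, by 0.65 and 0.38. With GC and length trends removed the difference of EIF6 between the clones was -0.23, adjusted p 0.00293. EIF5B, the GTPase that joins the subunits, was lower in clone 15 (log2 fold change -0.33, adjusted p 0.00812), with -0.024 (adjusted p 0.807) in clone 37 and 0.31 (adjusted p 0.00457) between the clones. Against its neighbours it gave 0.10, adjusted p 0.43 in clone 15 and 0.33, adjusted p 0.00161 in clone 37, and with GC and length trends removed neither call held (-0.052, adjusted p 0.614 in clone 15 and 0.092, adjusted p 0.215 between the clones). Without clone 15 replicate 2 the values were -0.21, adjusted p 0.0496 and 0.19, adjusted p 0.000705.

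The eIF5A proteins carry hypusine, an amino acid known from no other protein, and act mainly in elongation. EIF5A stood at 451, 539 and 489 CPM in parental cells, 646, 730.5 and 655 in clone 15 and 631, 589 and 639 in clone 37, with both clones above parental. EIF5A was higher in clone 37 (log2 fold change 0.30, SE 0.075, adjusted p 0.00244) and clone 15 (log2 fold change 0.42, SE 0.10, adjusted p 0.000648). Neither call held against its neighbours (0.037, adjusted p 0.727 in clone 37 and 0.065, adjusted p 0.617 in clone 15), and the first was lost without clone 37 replicate 3 (0.25, adjusted p 0.0608) and the second with GC and length trends removed (0.17, adjusted p 0.153). Of its 75-base words 18.0% occur in other genes, so a part of its reads is uncertain too. Its paralogue EIF5A2 (ENSG00000163577, chromosome 3, 170888415 to 170908693) stood at 15.3, 14.2 and 12.8 CPM in parental cells, 10.8, 10.8 and 10.5 in clone 15 and 14.9, 10.9 and 11.9 in clone 37. EIF5A2 was lower in clone 15 (log2 fold change -0.43, SE 0.13, adjusted p 0.00691), but not with GC and length trends removed (-0.030, adjusted p 0.848), and clone 37 gave -0.19 (adjusted p 0.234). Between the clones it gave 0.24 (adjusted p 0.0962), and it was called higher in clone 37 against its neighbours (0.58, adjusted p 0.00027) or without clone 37 replicate 2 (0.34, adjusted p 0.0399). EIF5AL1 (ENSG00000253626, chromosome 10, 79512601 to 79516440), a copy of EIF5A, stood at 1.76, 2.16 and 2.22 CPM in parental cells, 2.10, 5.04 and 2.14 in clone 15 and 3.38, 4.45 and 3.40 in clone 37. EIF5AL1 was higher in clone 37 (log2 fold change 0.83, SE 0.23, adjusted p 0.00584), and in clone 15, where replicate 2 stood apart, it gave 0.55 (adjusted p 0.16), or 0.041, adjusted p 0.915 without that library. Between the clones the value was 0.29 (adjusted p 0.458), and without that library it was called higher in clone 37 (0.79, adjusted p 0.00336). It shares 10.9% of its 75-base words with EIF5A, so a part of its reads is uncertain.

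Most called initiation factor genes had the sign of the genes around them, as did most called genes in all. In clone 15 against parental, 26 of 31 called members (83.9%) had the sign of the median of their 100 nearest tested genes, against 74.5% of all called genes. In clone 37 against parental it was 22 of 29 (75.9%), against 78.6%, and between the clones 18 of 27 (66.7%), against 71.6%. Across members the gene's and the neighbours' values correlated with r = 0.63 in clone 15 (48 genes), 0.38 in clone 37 (47 genes) and 0.62 between the clones (48 genes), given as a description since all points share the same libraries. Across all genes r was 0.30, 0.39 and 0.34. When each gene was tested against its neighbours, 18 members were higher and 13 lower in clone 37 than in clone 15, against 11 and 16 without that step. Of all genes 26.1% were then higher and 24.8% lower, against 28.7% and 29.0%. EIF4EBP1 and EIF1 were lower in clone 37 with neighbour medians of 0.039 and 0.17, and EIF1B and EIF3D were lower in clone 15 with medians of -0.047 and -0.078.

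**Figure D4:**
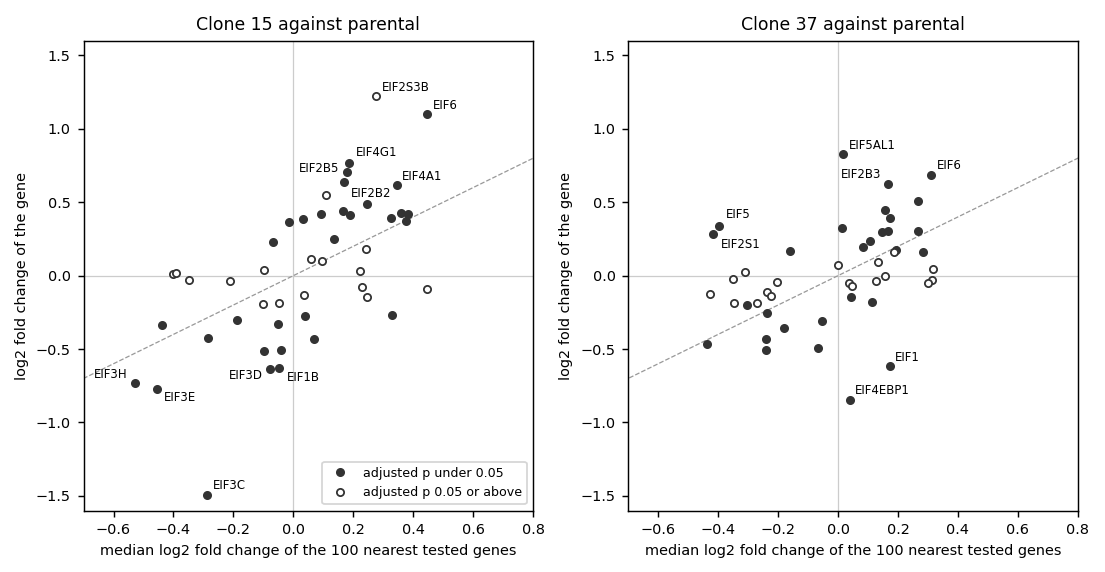
Log2 fold change of each tested member (vertical axis) against that of its 100 nearest tested genes on the chromosome, as their median (horizontal axis), in clone 15 (left) and clone 37 (right) against parental; the dashed line marks equal values and filled points have an adjusted p under 0.05. EIF3E and EIF3H lie low on both axes in clone 15, and EIF4EBP1 lies low with neighbours near 0 in clone 37.

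The genes that act on these factors were listed as well. Of 8 genes for the eIF2 alpha kinases, their activator and inhibitor and the regulators of the eIF2 phosphatase, 5 were lower and none higher in clone 37, and 6 were lower and 1 higher in clone 15. Between the clones 3 were higher and 2 lower in clone 37. For these lists too the shares of all genes are those given above, with 27.3% lower in clone 37, 26.2% lower in clone 15 and 28.7% higher in clone 37 than in clone 15. IMPACT, an inhibitor of the kinase GCN2, stood at 90.8, 104 and 89.6 CPM in parental cells, 60.4, 57.6 and 50.9 in clone 15 and 41.9, 42.1 and 43.2 in clone 37. The groups did not overlap. IMPACT was lower in clone 37 (log2 fold change -1.19, SE 0.073, adjusted p 5.51e-10) and clone 15 (log2 fold change -0.78, SE 0.091, adjusted p 9.77e-08), and lower in clone 37 than in clone 15 (log2 fold change -0.41, SE 0.073, adjusted p 2.41e-05), although against its neighbours the last value was 0.39, adjusted p 5.94e-05. Clone 37 against parental gave -0.43, adjusted p 0.000122 against neighbours, and with GC and length trends removed the clones gave -0.63, adjusted p 3.12e-10.

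EIF2AK2, the double-stranded RNA kinase PKR, stood at 162, 174 and 164 CPM in parental cells, 96.7, 91.9 and 86.2 in clone 15 and 168, 169 and 177 in clone 37. EIF2AK2 was lower in clone 15 (log2 fold change -0.89, SE 0.081, adjusted p 1.66e-09) and higher in clone 37 than in clone 15 (log2 fold change 0.91, SE 0.058, adjusted p 1.79e-13), while clone 37 against parental gave 0.017 (adjusted p 0.829). Against its neighbours the clone 15 value was -0.36, adjusted p 0.000714. The value in clone 37 against parental was called higher against its neighbours (0.39, adjusted p 3.48e-05) and with GC and length trends removed (0.13, adjusted p 0.0489). EIF2AK1, the haem-regulated kinase, had log2 fold changes of -0.55 (adjusted p 3.94e-07) in clone 37 and -0.77 (adjusted p 1.73e-08) in clone 15, and EIF2AK3, the kinase PERK, had -0.65 (adjusted p 3.97e-06) and -0.72 (adjusted p 1.45e-06). Against neighbours both stayed lower, EIF2AK1 at -0.25, adjusted p 0.00186 and -0.40, adjusted p 0.00028 and EIF2AK3 at -0.31, adjusted p 0.00577 and -0.34, adjusted p 0.00795. EIF2AK4, the kinase GCN2, was called in no comparison, and its activator GCN1 was higher in clone 15 (log2 fold change 0.34, adjusted p 0.00162).

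Of 15 partners and regulators of the cap complex, clone 37 had 3 higher and 4 lower than parental, and clone 15 had 6 higher and 5 lower. Clone 37 against clone 15 gave 6 of each. PDCD4, an inhibitor of eIF4A, was lower in clone 37 (log2 fold change -0.48, adjusted p 4.01e-06) and clone 15 (log2 fold change -0.76, adjusted p 7.67e-08). PABPC1, the poly(A)-binding protein that contacts eIF4G, was lower in clone 15 (log2 fold change -0.78, adjusted p 3.99e-07), with 0.032 (adjusted p 0.753) in clone 37. Against its neighbours it gave -0.31, adjusted p 0.0143 in clone 15 and -0.22, adjusted p 0.0341 in clone 37, and without parental replicate 2 it was called higher in clone 37 (0.10, adjusted p 0.0362). MTOR and RPTOR, which encode the kinase of the 4E-BPs and its partner, were higher in clone 15, by 0.45 (adjusted p 5.78e-05) and 0.37 (adjusted p 0.000281), with 0.086 (adjusted p 0.22) and 0.14 (adjusted p 0.0654) in clone 37. Neither clone 15 call held against neighbours (0.051, adjusted p 0.649 for MTOR and -0.041, adjusted p 0.703 for RPTOR). In clone 37 MTOR was called lower against its neighbours (-0.24, adjusted p 0.00226), and with GC and length trends removed both were called higher (0.17, adjusted p 0.0124 and 0.18, adjusted p 0.0135).

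Of 7 auxiliary initiation and recycling factors, clone 37 had 2 higher and 1 lower than parental, and clone 15 had 1 higher and 2 lower. Clone 37 against clone 15 gave 6 higher and none lower. ABCE1, which splits ribosomes after termination, was higher in clone 37 (log2 fold change 0.88, adjusted p 9.73e-09), with 0.082 (adjusted p 0.44) in clone 15. Against its neighbours the clone 37 value was 0.46, adjusted p 3.17e-05, and in clone 15 it was called higher with GC and length trends removed (0.32, adjusted p 0.000927) or without parental replicate 2 (0.16, adjusted p 0.0428). DDX3X, a helicase that helps initiation on structured leaders, was higher in clone 37 (log2 fold change 0.78, adjusted p 4.91e-08) and clone 15 (log2 fold change 0.27, adjusted p 0.0145). The clone 15 call was lost against its neighbours (0.14, adjusted p 0.211), with unstranded counts and without parental replicate 3 (0.22, adjusted p 0.107), and removing GC and length trends gave 0.55, adjusted p 1.99e-05. BZW2, an eIF5 mimic, was lower in clone 37 (log2 fold change -0.43, adjusted p 6.7e-05) and clone 15 (log2 fold change -0.60, adjusted p 4.17e-06). Against its neighbours BZW2 gave 0.019, adjusted p 0.854 and -0.072, adjusted p 0.548, and with GC and length trends removed the clone 15 value was -0.39, adjusted p 0.000602.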

How the data were processed

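The deposited files hold raw counts of read pairs per gene, made by the authors with STAR 2.7.10a on hg38 per the submitters' processing notes, which also list FastQC 0.11.9. The annotation release is not given in the sources used here. Per the labels' protocols, RNA was depleted of ribosomal RNA and 500 ng per sample went into a directional library kit with 13 cycles of amplification. Such counts leave out multimapping reads. Column 4, the transcript strand, was used. It held 92.6% to 94.0% of stranded gene counts. The 4 summary entries stayed out of library sizes. Of all pairs, 19.2% to 34.6% had no feature, 3.76% to 4.40% were ambiguous and 1.24% to 5.16% were unmapped.

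Genes were filtered with filterByExpr, scaled by TMM and tested with edgeR 4.0.16 (quasi-likelihood, robust) in R 4.3.3, on the 6 libraries of each comparison. P-values were adjusted by Benjamini-Hochberg over all genes. The standard error is the log2 fold change over the square root of F. CPM values are counts per 1000000 gene counts, without TMM. DESeq2 1.42.0 served as an alternative. Positions, exon overlaps and shared words come from GENCODE 29 on GRCh38, in which 58496 of 60683 IDs were found. With 3 against 3 libraries an exact permutation p cannot go below 0.1, so none is given.

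The members and lists were chosen with earlier results of these data known. Members are named with every library's value if called with a log2 fold change of at least 0.5 in size in any comparison, or if they had the largest called change of their list. Of other lists the 2 genes with the largest called change per comparison are named. EIF1AX, EIF5, EIF4E, EIF5A, and other genes given by value only, were added beyond this rule with their values known. The lists outside the members are not complete, and called genes such as PABPC4, PAIP2, PAIP2B, MKNK2 and BZW1 are left without values.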

Additional observations from a re-analysis of the deposited data

Results flagged for a closer look

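EIF2B5 and EIF3K were called in opposite directions in the clones, and the difference between the clones was itself called, by edgeR's quasi-likelihood test with Benjamini-Hochberg adjustment. EIF2B5 was higher in clone 15 and lower in clone 37 in every library, and clone 37 against clone 15 gave a log2 fold change of -0.96 (adjusted p 1.15e-12). EIF3K had the same order of groups, with -0.72 between the clones (adjusted p 2.46e-11). The decrease of EIF2B5 in clone 37 was not called against its chromosome neighbours, and the increase of EIF3K in clone 15 was not called with GC and length trends removed.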

How the results depend on the processing

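Each comparison was repeated with other size factors (RLE), with DESeq2, without the low-count filter or with 1 CPM in at least 3 libraries in its place, and on unstranded, thinned or protein-coding counts. It was also repeated with all 9 libraries in the fit, with a replicate block, with GC and length trends removed, against chromosome neighbours, and leaving out each library. Without 1 replicate, members called higher in clone 37 against parental numbered 9 to 20, where 19.8% to 28.2% of all genes were higher, and lower 9 to 13 (23.6% to 31.2% of all genes). In clone 15 against parental they numbered 15 to 20 (19.9% to 24.0%) and 12 to 15 (22.7% to 24.7%), and in clone 37 against clone 15 10 to 13 (22.9% to 29.0%) and 15 to 19 (24.4% to 31.2%). Against chromosome neighbours 18 members were higher and 13 lower in clone 37 than in clone 15, with 26.1% and 24.8% of all genes. The values followed over settings were those of the genes named by the rule and most others given in the text. Of the called ones, 1790 kept their direction and call, 116 lost the call and 15 took the other sign, counted over settings. Of those not called, 63 changed sign and 58 became called, 9 of them with the other sign. Same-numbered replicates correlated at -0.16 to 0.023 in their deviations from the group means. No pairing by number was thus seen, but this cannot show how the libraries were made. With the replicate block, 15 members were higher and 9 lower in clone 37 (25.0% and 25.7% of all genes), 18 and 14 in clone 15 (24.1% and 25.1%), and 12 and 18 between the clones (29.7% and 29.5%). EIF3CL, EIF4E1B and EIF4EBP3 stayed under 1 CPM in every library and were left out by the low-count filter. Without it 1 of their 9 values was called, EIF3CL higher in clone 37 than in clone 15 (adjusted p 0.0394).

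Of the values followed, the log2 fold changes below took the other sign. Against chromosome neighbours, called values that turned were, in clone 37 BZW2 0.019, EIF4A3 -0.021, EIF4E2 0.10, EIF4G3 -0.12 and MTIF2 0.18, and in clone 15 EIF1AD -0.0061, EIF5B 0.10, MTIF2 0.13 and RPTOR -0.041, and between the clones EEF2K -0.34, EIF2A 0.11, EIF2S3 -0.0090, EIF4A2 0.23 and IMPACT 0.39. Against chromosome neighbours, values not called that turned were, in clone 37 EIF2B2 0.30, EIF2B4 0.16, EIF3C -0.27, EIF3E -0.022, EIF3H -0.044, EIF4A2 0.16, EIF4G1 0.12, EIF5A2 0.083, EIF5B 0.33, MTOR -0.24, PABPC1 -0.22 and RPTOR -0.058, and in clone 15 EEF1E1 0.037, EIF1AX 0.17, EIF2B4 0.32 and EIF4A2 -0.059, and between the clones EIF4A1 0.041 and EIF4E3 -0.059. With GC and length trends removed, called values that turned were, between the clones EIF2S1 -0.0019. With GC and length trends removed, values not called that turned were, in clone 37 EIF4A2 0.020 and EIF5B 0.047, and in clone 15 EIF1AX 0.31, EIF3B -0.094, EIF3J 0.11 and EIF3M 0.15, and between the clones EIF4E3 -0.20, EIF4G2 -0.13 and EIF5A2 -0.080. With unstranded counts, values not called that turned were, in clone 37 EIF2AK2 -0.022 and PABPC1 -0.0078, and in clone 15 EIF2D -0.014, EIF3B -0.041 and EIF4E2 -0.013. On protein-coding genes, values not called that turned were, in clone 15 EIF1AX 0.0064 and EIF2B4 0.014. With thinned counts, values not called that turned were, in clone 15 EIF1AX 0.019, and between the clones EIF4E3 -0.015. With the 1 CPM filter, values not called that turned were, in clone 37 EIF2AK2 -0.0052. Leaving out 1 replicate, values that turned ranged in clone 37 from -0.040 to 0.047 for EIF2AK2, -0.13 to 0.063 for EIF2S2, -0.12 to 0.017 for EIF2S3, -0.030 to 0.10 for EIF3C, -0.011 to 0.17 for EIF3H, -0.12 to 0.010 for EIF4A2, -0.10 to 0.058 for EIF5B and -0.053 to 0.10 for PABPC1. Leaving out 1 replicate, values that turned ranged in clone 15 from -0.12 to 0.046 for EIF1AX, -0.089 to 0.040 for EIF2B4, -0.18 to 0.027 for EIF2S2, -0.039 to 0.057 for EIF3B, -0.16 to 0.024 for EIF3J and -0.071 to 0.10 for EIF4E2. Leaving out 1 replicate, values that turned ranged between the clones from -0.0078 to 0.14 for EIF3L, -0.026 to 0.048 for EIF4E3 and -0.069 to 0.083 for EIF4G2. Some member values not followed also turned with the median of their neighbours taken off. Between the clones EIF1AX went from a called 0.33 (adjusted p 7.58e-06) to -0.0037. In clone 37 EIF4ENIF1, not called, went from -0.14 to 0.086, and in clone 15 EIF3F from 0.030 to -0.19. Between the clones values not called turned for EIF3A (0.094 to -0.015), EIF3F (-0.032 to 0.040) and EIF5A (-0.12 to 0.021). EIF3B (0.010 to -0.044) and EIF4E (0.091 to -0.0099) turned there too. The cause of these shifts was not tested.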

Other observations

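The later steps of translation were covered by shorter lists. Of 7 tested elongation factor genes, clone 37 had 2 higher and 2 lower than parental and clone 15 had 2 lower, while clone 37 against clone 15 gave 5 higher and 1 lower (28.7% and 29.0% of all genes), by edgeR's quasi-likelihood test with Benjamini-Hochberg adjustment. EEF1E1, a small partner of the aminoacyl-tRNA synthetase complex, stood at 12.1, 12.2 and 11.9 CPM in parental cells, 11.4, 10.5 and 10.4 in clone 15 and 23.1, 24.6 and 24.9 in clone 37. EEF1E1 was higher in clone 37 than in parental (log2 fold change 0.98, SE 0.10, adjusted p 1.82e-07) and than in clone 15 (log2 fold change 1.16, SE 0.10, adjusted p 7.84e-11, or 0.63, adjusted p 6.26e-06 against chromosome neighbours), with -0.19 (adjusted p 0.234) in clone 15 against parental. EEF2K, the kinase that inhibits eEF2, stood at 123, 121 and 131 CPM in parental cells, 64.2, 70.1 and 63.0 in clone 15 and 84.0, 83.6 and 79.8 in clone 37. EEF2K was lower in clone 37 (log2 fold change -0.63, SE 0.057, adjusted p 6.76e-08) and clone 15 (log2 fold change -0.96, SE 0.078, adjusted p 2.55e-10) with no overlap between groups. Against chromosome neighbours the clone 15 value was -0.58, adjusted p 1.44e-06.

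Of the 3 termination factor genes, 2 were higher and 1 lower in clone 37, and 1 was higher and 2 lower in clone 15. GSPT2, the intronless paralogue of the release factor gene GSPT1, stood at 9.99, 13.2 and 11.6 CPM in parental cells, 8.43, 7.67 and 10.1 in clone 15 and 2.47, 2.52 and 3.00 in clone 37. Every clone 37 library lay under every other library. GSPT2 was lower in clone 37 (log2 fold change -2.15, SE 0.18, adjusted p 1.98e-08) and clone 15 (log2 fold change -0.46, SE 0.15, adjusted p 0.0141), and the clone 15 call was lost without parental replicate 2 (-0.33, adjusted p 0.0841), clone 15 replicate 1 (-0.41, adjusted p 0.0648) or clone 15 replicate 2 (-0.35, adjusted p 0.0834). GSPT1 was higher in clone 37 (log2 fold change 0.35, adjusted p 0.000247) and lower in clone 15 (log2 fold change -0.36, adjusted p 0.00156), and higher in clone 37 than in clone 15 (log2 fold change 0.70, adjusted p 1.39e-11). Against its neighbours GSPT1 gave 0.078, adjusted p 0.361 in clone 37, -0.13, adjusted p 0.241 in clone 15 and 0.22, adjusted p 0.00124 between the clones, and with GC and length trends removed the clone 15 value was -0.12, adjusted p 0.139. MTIF2, the mitochondrial initiation factor related to bacterial IF2, was lower in clone 37 (log2 fold change -0.24, adjusted p 0.00914) and clone 15 (log2 fold change -0.47, adjusted p 0.000396). Against its neighbours MTIF2 gave 0.18, adjusted p 0.0573 and 0.13, adjusted p 0.316, and the clone 37 call was lost without clone 37 replicate 1 (-0.20, adjusted p 0.0741).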
